A study of Arabidopsis thaliana with 6 samples.

Results

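The evening complex is a repressor of the plant circadian clock. It joins LUX (AT3G46640, symbol PCL1 in RefSeq), a MYB-related protein that binds DNA, with ELF3 (AT2G25930), a scaffold protein, and ELF4 (AT2G40080), a small partner of ELF3. BOA (AT5G59570) is the closest relative of LUX and can also take part in the clock. The complex accumulates at dusk and restrains morning clock genes and growth genes of the PIF family. PRR7 is a pseudo-response regulator that represses transcription in the day, so its presence at genes of the evening complex bears on how the day and evening arms of the clock are joined.

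These 4 genes were followed through lists of enriched regions from chromatin immunoprecipitation with sequencing (ChIP-seq) in Arabidopsis thaliana. A region was counted for a gene when its maximum lay inside the gene or within 3000 bp of it, and 3 of the 1563 regions in all lists met that rule. All 3 were at LUX, 1 in each of the HA-PRR7 lists. BOA, ELF3 and ELF4 had none in any list.

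Plants were whole seedlings aged 15 days from 12 h of light and 12 h of dark. The tested line, number 151, makes PRR7 with an HA tag from a transgene driven by the promoter of PRR7, and the control line lacks the transgene. Both lines carry the prr7-3 mutation, and the tagged protein comes from 1 transgenic line. The 6 samples were 2 immunoprecipitates (IPs) with anti-HA antibody per line and 1 input per line. Lists of both HA-PRR7 IPs and of the prr7-3 IP from experiment 1 were used, and the second prr7-3 IP was not analysed here. Experiment 2 gave a pair of HA-PRR7 lists, called KC and TL by the depositors, which belong to the same sample and count as 1 replicate. The lists held 685 regions in HA-PRR7 experiment 1, 380 in KC, 355 in TL and 143 in prr7-3, with a median of 10, 74.5, 75 and 15 IP tags (mapped reads) per region. Whole seedlings mix all cell types, so binding in more cells and stronger binding per cell cannot be told apart. The lists hold values only where a region was accepted, so prr7-3 has no value at LUX and no test between the lines was made. The labels do not say whether the experiments used separately grown plants.

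The region beside LUX was present in both experiments and lay at the same place. On chromosome 3 of TAIR10, it ran from 17182629 to 17182906 in experiment 1, from 17182467 to 17183057 in KC and from 17182452 to 17183048 in TL. The maxima were at 17182719, 17182771 and 17182774, so all 3 fell within 55 bp. The KC and TL maxima were 3 bp apart, where the median over 295 paired regions of those lists was 4 bp. The experiment 1 region, 278 bp wide, lay wholly inside the KC region of 591 bp and the TL region of 597 bp. Each of the 3 regions held a single peak line in the deposit, at the region's maximum, and no region of any list held more than 1.

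**Figure D1:**
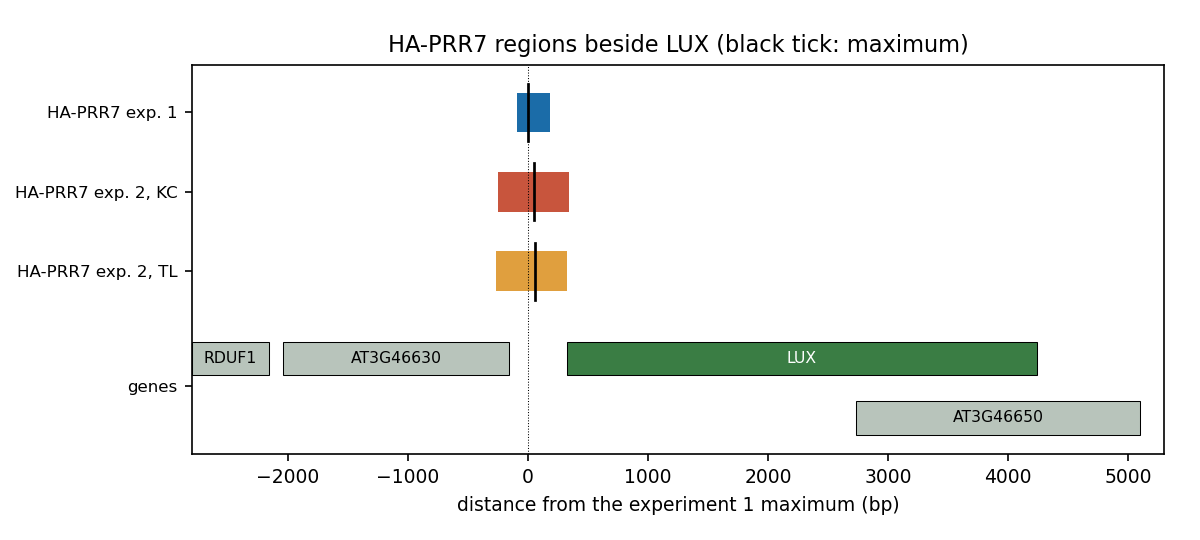
Position of the HA-PRR7 regions beside LUX, in bp from the experiment 1 maximum. Coloured bars are the regions of each list, black ticks their maxima, and boxes below are protein-coding genes (RDUF1 continues past the left edge). The 3 maxima lie within 55 bp, between AT3G46630 and LUX.

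LUX was not the gene nearest to this maximum in the annotation used, and the order may differ in another annotation. The maximum sat in the 481 bp between AT3G46630 and LUX, as RefSeq's annotation of TAIR10.1 gives the genes. It was 159 bp from AT3G46630 and 323 bp from LUX in experiment 1. In KC the distances were 211 bp and 271 bp, and in TL they were 214 bp and 268 bp. AT3G46630 was therefore nearer by 164, 60 and 54 bp in the 3 lists, a margin smaller than any of the regions is wide. The experiment 1 region was entirely between the genes, whereas the KC region reached 94 bp into AT3G46630 and 16 bp into LUX, and the TL region 109 bp and 7 bp. The gene table gives no strand, so the side of each gene on which transcription starts was not used. RDUF1 (2160 bp from the experiment 1 maximum) and AT3G46650 (2734 bp), which overlaps LUX at its far end, also lay within 3000 bp. That makes 4 protein-coding genes within reach of the LUX region, where the median nuclear region had 2 in each HA-PRR7 list and 11.2%, 11.3% and 12.0% of regions had at least 4. The LUX maximum was outside any protein-coding gene in all 3 lists, as were 30.5%, 68.3% and 67.6% of nuclear maxima in experiment 1, KC and TL. From position alone the region cannot be given to LUX rather than to AT3G46630.

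The LUX region held 17 IP tags in experiment 1 (exact Poisson 95% interval 9.90 to 27.2, which covers counting error only). It held 255 in KC (225 to 288) and 263 in TL (232 to 297). Experiment 2 gave many more tags. KC and TL are lists of the same sample, so their intervals are not independent. The background behind the deposited tag enrichment, obtained here as IP tags over that enrichment, was 2.55 tags in experiment 1, 19.9 in KC and 20.1 in TL. It is not the control's tag count in the region, which was 17, 0 and 1. Tag enrichment is therefore not IP tags over the control tags counted there. The deposited tag enrichment was 6.67 in experiment 1, 12.8 in KC and 13.1 in TL, and values of the 2 experiments were not compared, since the control held a median of 14 tags per region in experiment 1 and 0 in KC and TL. The median tag enrichment of all regions was 3.90, 6.32 and 6.30 in the same order, so the LUX region was above the middle of its own list each time.

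The control values given at LUX differed between the lists, whose control libraries are not named. In experiment 1 the control had 17 tags in the region but a signal of only 0.825 at the maximum. In KC it had 0 tags (exact Poisson 95% interval 0 to 3.69) and a signal of 0. In TL it had 1 tag (0.0253 to 5.57) and a signal of 3.71. Control tags and their intervals are counts as listed, not scaled to the IP tags. IP and control counts therefore cannot be set against each other directly. The IP signal at the maximum was 12.999 in experiment 1, 25.1 in KC and 32.0 in TL. The authors' fold enrichment, which divides the IP signal by the control signal and takes a control below 1 as 1, was 12.999, 25.1 and 8.63. Of KC and TL, the list with the higher IP signal at LUX thus had the lower fold.

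Within each list the LUX region ranked high by IP strength. By fold it ranked 73 of 685 in experiment 1 and 34 of 380 in KC, but 302 of 355 in TL. By IP tags it ranked 62, 15 and 11, and by IP signal 163, 42 and 17. By tag enrichment it ranked 36, 27 and 23, and by q value 59, 19 and 15, with -log10 q of 19.3, 604 and 636. The rank of 302 by fold in TL was the only place among these 15 below the middle of its list.

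**Figure D2:**
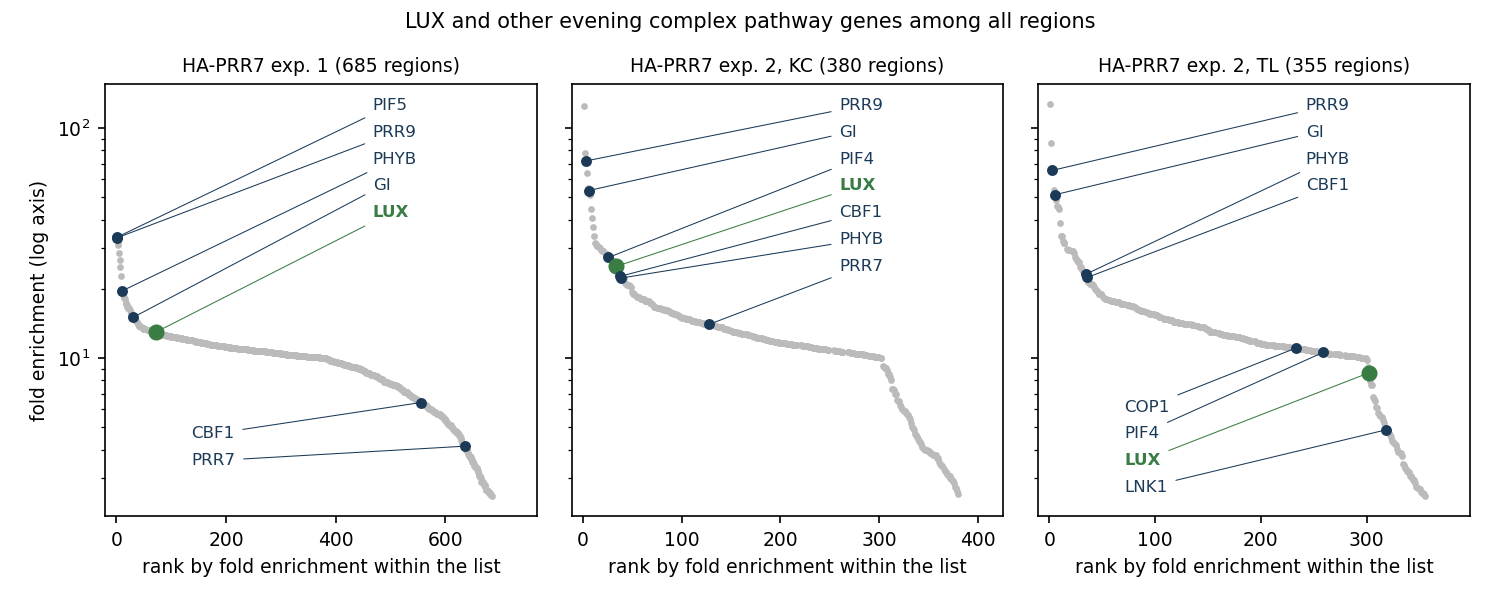
Fold enrichment (log axis) against rank for every region of the HA-PRR7 lists (grey). LUX is in green, and dark points mark the best-ranked region within 3000 bp of each other pathway gene named in the text. The CBF1 point is at rank 38 in KC and 36 in TL. It is a region 2533 and 2522 bp from CBF1 whose nearest gene is DREB1A, not the region inside CBF1. LUX lies at rank 73, 34 and 302 from left to right.

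The shape of the LUX region was broad. By the score of the whole region, its strands matched less well than at most regions of each HA-PRR7 list. Its width of 278 bp in experiment 1 stood against a median of 135 bp, and 591 and 597 bp in experiment 2 against medians of 267 and 269 bp. The score for the match between tags on the plus and minus strands (strand correlation) was 0.33 in experiment 1, 0.57 in KC and 0.57 in TL. The list medians were 0.66, 0.75 and 0.74, so 18.1%, 33.2% and 31.0% of regions had a lower score than LUX. The peak lines, which score the maximum itself, gave 0.41, 0.86 and 0.69 and were not ranked within the lists. The strand shift of the region was 52, 81 and 60 bp, against medians of 42, 57.5 and 58 bp.

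**Figure D3:**
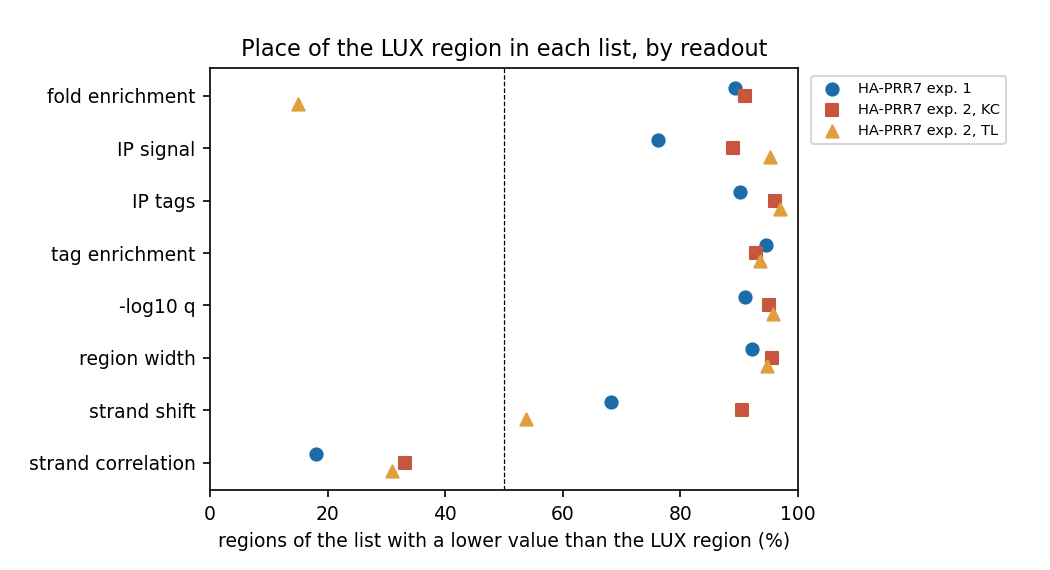
Share of each list's regions with a lower value than the LUX region, for readouts of the deposited lists (x axis in percent, dashed line at 50%). LUX lies right of the middle for IP tags, IP signal, tag enrichment, -log10 q and width in every list, and left of it for strand correlation in every list and for fold in TL.

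KC and TL gave close IP tags at LUX and different folds. The ratio of KC to TL was 0.970 for IP tags and 0.982 for tag enrichment. The background behind tag enrichment was nearly equal in KC and TL, so the tag enrichment ratio largely repeats that of the IP tags. It was 0.783 for IP signal at the maximum and 2.90 for fold. Among 295 paired regions, 26, LUX included, had a KC to TL fold ratio at least as high as that of LUX. Their TL control signal was 3.02 to 6.73, and it had to be above 1, since no pair's IP signal differed by enough to give such a ratio. Only 6 pairs, LUX included, differed in IP signal by at least as much in either direction, though the difference at LUX was small (a log2 ratio of -0.35). A TL control signal of at least 3.71, the value at LUX, occurred at 31 of 355 TL regions. Of the 110 TL regions with exactly 1 control tag, 38 had a control signal above 1 and 21 had one at least as high as at LUX. Every TL region under 10-fold (57 regions) had a control signal above 1, as the calculation of the fold requires when no accepted IP signal is below 10. The low TL fold at LUX thus belongs to a region with 1 control tag.

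**Figure D4:**
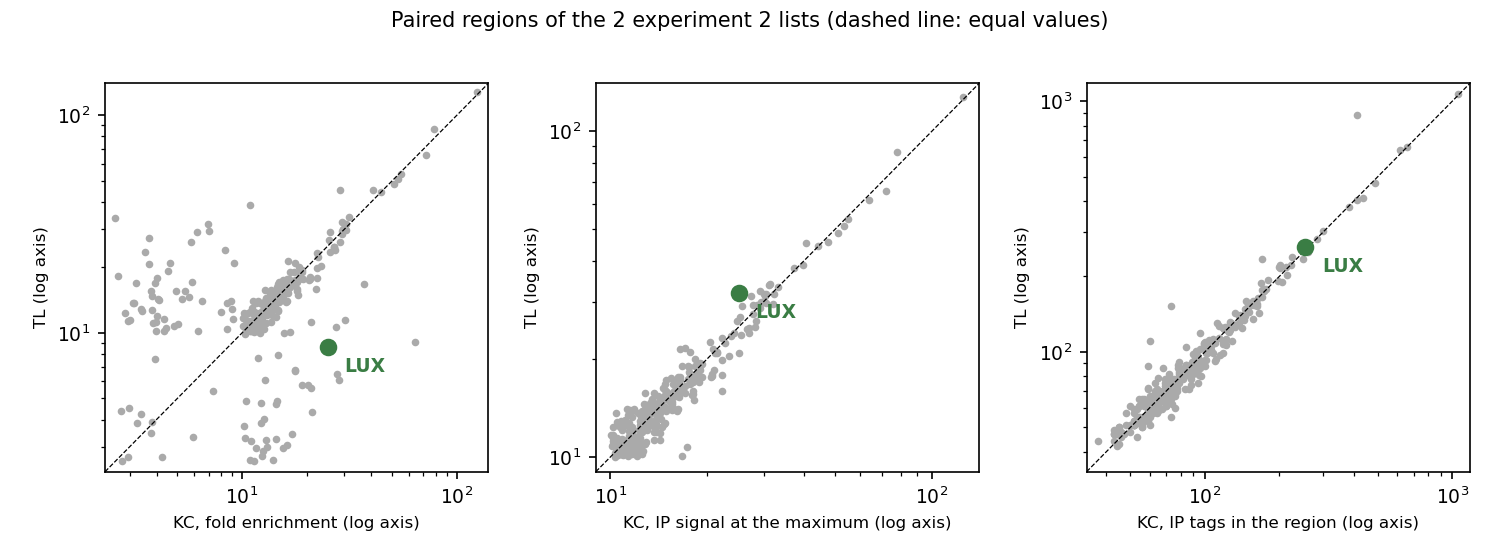
Fold enrichment, IP signal at the maximum and IP tags of 295 paired regions in KC (x axis) and TL (y axis), all on log axes, with the line of equal values dashed. LUX (green) lies near the line for IP tags (255 and 263) and far below it for fold (25.1 and 8.63).

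LUX was among the regions called reproducible, that is, HA-PRR7 experiment 1 regions overlapping a region in KC and in TL and none in prr7-3. There were 68 such regions in the nucleus. Membership is fixed by overlap, so the values that follow only place LUX among them. It was 25 by IP tags in experiment 1 (median 14, highest 82). In KC it was 12 (median 124.5, highest 1054), and in TL it was 11 (median 128, highest 1072). By IP signal it was 36, 29 and 16 in experiment 1, KC and TL, by fold 24, 24 and 63, and by strand correlation 58, 34 and 37. Its strand correlation was 0.33 in experiment 1, where the reproducible regions had a median of 0.73. In KC and TL it was 0.57 and 0.57, close to their medians of 0.57 and 0.59.

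The regions most like LUX in rank by fold were sought among the reproducible regions, over the 3 HA-PRR7 lists (2 samples). The measure was the straight-line distance to LUX in percentiles of that rank, with KC and TL, lists of the same sample, both counted. The nearest were the regions whose closest genes were AT1G05870 (7.10 percentile points away), RPT2 (10.1), RBR1 (12.1), DDB2 (12.8) and CYTC-2 (23.3). RPT2 acts in phototropism, RBR1 is the plant retinoblastoma-related protein, and DDB2 acts in repair of DNA damage. Their ranks by fold in KC were 45 for AT1G05870, 24 for RPT2, 72 for RBR1, 4 for DDB2 and 44 for CYTC-2, and in TL 225 to 313, an order that this choice of regions fixes. Other readouts did not enter the choice, and their TL IP signal ran from 10.1 at RBR1 to 61.3 at DDB2, against 32.0 at LUX. The TL control signal was 3.82 at AT1G05870, 4.11 at RPT2, 6.73 at DDB2 and 1.65 at CYTC-2, but 0.0022 at RBR1.

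Counted over genes, 1 of the 4 evening complex genes had a region in each HA-PRR7 list and 0 in prr7-3. Of all 27444 nuclear protein-coding genes, 5.01% had a region within 3000 bp in HA-PRR7 experiment 1, 2.90% in KC, 2.71% in TL and 1.03% in prr7-3. Regions in both experiment 2 lists reached 2.34% of genes, reproducible regions 0.561%, and any HA-PRR7 list 7.48%. With 4 genes, a count of 1 or 0 says little against these shares. Giving each region only to its nearest gene left 0 of 4 evening complex genes in every list, against 0.237% of all genes with a reproducible region.

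No region was accepted near BOA, the relative of LUX. The nearest maximum was 56.3 kb away in experiment 1 (near EXO70H7, 9.69-fold, 13 IP tags). It was 46.2 kb away in both KC (20.6-fold, 119 IP tags) and TL (17.6-fold, 110 IP tags), near AT5G59400. LUX thus had a region and BOA none in each of the HA-PRR7 lists. Of all protein-coding genes, 48.6%, 26.8% and 25.6% had a nearer region than BOA in experiment 1, KC and TL. At LUX the same shares were 1.95%, 0.998% and 0.926%.

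ELF3, the scaffold of the complex, was the member farthest from any HA-PRR7 region. The nearest maximum was 68.6 kb away in experiment 1 (6.82-fold, 8 IP tags), 633 kb in KC and 122 kb in TL. In KC 95.4% of genes had a nearer region, against 54.9% in experiment 1 and 51.6% in TL. The KC and TL distances differed because TL listed a region near SCRL17 (10.1-fold, 38 IP tags) that was not in KC, and 38 tags is the lowest count of any TL region.

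ELF4 had no region within 3000 bp either. Its nearest maximum was 64.9 kb away in experiment 1 (near ISA1, 6.29-fold, 11 IP tags). In experiment 2 it was 28.1 kb away in both lists, near AT2G40004, with 59 IP tags in KC and 71 in TL. The fold of that region was 3.01 in KC, where the control signal was 3.39, and 11.5 in TL, where it was 0.00026. In prr7-3 the region nearest to ELF4 was 45.02 kb away, near GEA6 (10.1-fold, 17 IP tags).

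The untagged control gave no region near any of the 4 genes. The nearest prr7-3 maximum to LUX was 494 kb away, to ELF3 689 kb and to BOA 1450 kb. An absent region means only that none was accepted. The fewest IP tags of any accepted region were 6 in HA-PRR7 experiment 1, 37 in KC, 38 in TL and 11 in prr7-3, with an IP signal of at least 10 in every list. Weaker binding at BOA, ELF3 or ELF4 would not be listed.

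**Figure D5:**
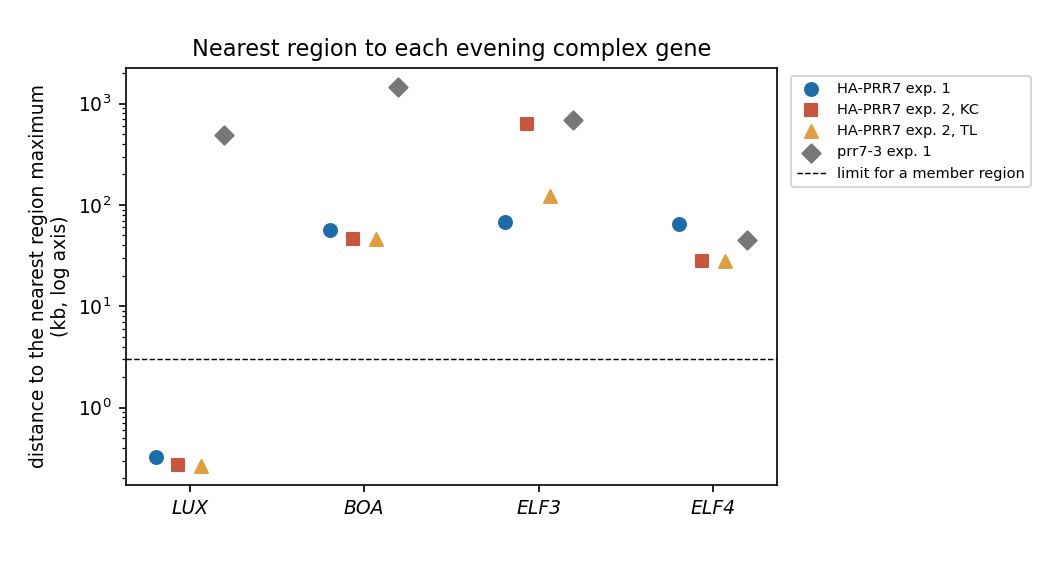
Distance (kb, log axis) from each evening complex gene to the nearest region maximum in each list, with the 3000 bp limit dashed. The 3 HA-PRR7 lists lie under the limit at LUX, and every other point is above it, from 28.1 kb (ELF4 in TL) to 1450 kb (BOA in prr7-3).

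A further 23 genes of the pathway were looked up, in lists chosen with earlier results of these data known. None of the 8 relatives had a region in any list, where 7.48% of all genes had one in some HA-PRR7 list, so a count of 0 is near the background. These were MYBC1, AT3G10760 and AT5G05090 (related to LUX), ELF4-L1 to ELF4-L4 (related to ELF4) and AT3G21320. Of 8 partners of the complex, 1 had a region in experiment 1, 1 in KC and 2 in TL (5.01%, 2.90% and 2.71% of all genes). PHYB, the red-light receptor, had regions in all 3 HA-PRR7 lists, and COP1, a ubiquitin ligase of light signalling, had 1 in TL alone (44 bp away, 11.1-fold, 38 IP tags). TOC1, TZP and the loci AT5G18190, AT3G03940, AT2G25760 and AT3G13670 had none. At PHYB the region with the higher fold lay 1155 bp away in experiment 1 (19.6-fold, 20 IP tags) and held 120 IP tags in KC and 124 in TL, with AT2G18780 nearer than PHYB. A second region, nearest to PHYB itself, lay 152 bp away in experiment 1 (10 IP tags) and 171 bp away in KC (64 IP tags), and TL had none there.

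All 7 genes listed as known targets of the evening complex had a region in at least 1 HA-PRR7 list, against 7.48% of all genes. PRR7, whose promoter the transgene carries, is 1 of the 7 and was also the 1 target with a region in prr7-3 (1.03% of all genes). Earlier results of these data on several of them were known when the list was made, so the count is not independent evidence. The counts were 5 of 7 in experiment 1, 5 of 7 in KC, 5 of 7 in TL and 4 of 7 in both experiment 2 lists. Of all genes, 5.01%, 2.90%, 2.71% and 2.34% had a region in the same order. PRR7 is among the genes counted in experiment 1 and KC. Reproducible regions were at 3 of 7, namely PRR9, GI and CBF1, against 0.561% of all genes.

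Among these targets, PRR9, the PRR7 relative that is repressed by the evening complex, exceeded LUX in every list. It held 50 IP tags in experiment 1, 381 in KC and 378 in TL, where LUX held 17, 255 and 263. GI, a clock and flowering regulator, held 23, 486 and 471 IP tags in its highest regions. CBF1, an activator of cold response, held 11, 65 and 70 IP tags in the region inside the gene, below LUX in all lists.

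The growth genes PIF4 and PIF5, which the evening complex represses at night, divided between the experiments. PIF5 had a region in experiment 1 alone (43 IP tags, rank 1). PIF4 had one in KC (180 IP tags, 27.4-fold) and TL (193 IP tags, 10.6-fold) and none in experiment 1. The PIF4 fold was lower in TL than in KC, as at LUX, with 1 control tag and a control signal of 2.94. LNK1, a clock coactivator gene, had a region in TL alone (112 IP tags, 4.87-fold), also with 1 control tag and a control signal of 3.78.

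PRR7 itself had regions with and without the tag. All of them had their maximum inside the gene. In HA-PRR7 experiment 1 it had 3 regions with 11 to 15 IP tags (3.04-fold to 4.14-fold). The control held 35 to 67 tags in them, above the list median of 14. KC had 1 region with 151 IP tags (14.03-fold), TL had none, and prr7-3 had a region with 17 IP tags (8.94-fold). The HA-PRR7 line also carries PRR7 sequence in its transgene. In that line, regions from the native gene and from the transgene cannot be told apart. LUX differed from PRR7 in that nothing was accepted at LUX in prr7-3.

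Other regions near LUX were weak and did not recur. Within 50 kb, experiment 1 had a region 24.96 kb from LUX with 6 IP tags (5.13-fold, rank 606), and TL had one 30.4 kb away with 41 IP tags (10.3-fold, rank 275). Both lay on the AT3G46630 side. KC had none besides the LUX region itself.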

How the data were processed

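Per the submitters' processing notes, alignment used Bowtie and TAIR10. The sources used here do not give the peak caller, its settings or its control library. For each sample's regions the deposited lists give the IP and control signal at the maximum, their ratio as a fold enrichment, tag counts, strand scores and -log10 q, all the authors' own. Recomputing the deposited fold from both signals, with a control under 1 set to 1, matched every list to within 1% in 100% of regions.

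Genes came from RefSeq's table for assembly TAIR10.1, whose nuclear chromosomes are those of TAIR10. All 27 genes looked up were matched by locus. Regions overlapping by at least 1 bp were called shared. Tag intervals are exact Poisson (95%). The named genes were the members, neighbours of the LUX region, list genes with a region, the 5 regions nearest to LUX in rank by fold, and the region nearest to each member. Members and lists were chosen with earlier results of these data known. Assignment and overlap steps were tested on simulated data. Python 3.11.15, pandas 2.3.3 and scipy 1.17.1 were used. Planned motif searches were not run, because no sequence was used here.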

Additional observations from a re-analysis of the deposited data

How the results depend on the processing

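Under 39 other settings, 23 values stayed alike and 16 moved. The counts of evening complex genes did not change with limits of 1000 bp or 5000 bp, nor, for reproducible regions, with region borders or overlaps of 50% of the shorter region. The positions fixed this in advance. LUX maxima lay 268 to 323 bp away, and no other member had an HA-PRR7 maximum nearer than 28.1 kb. The experiment 1 region also lay wholly inside the KC and TL regions. These settings therefore say nothing about how stable the count is. Without either replicate of the HA-PRR7 IP the count of evening complex genes stayed at 1. Leaving out a replicate only loosens the overlap rule, and BOA, ELF3 and ELF4 had no region in any list. The count therefore could not change, and this setting says nothing about how stable it is. With the nearest gene only, a choice made after seeing the data for the single lists, reproducible regions and each HA-PRR7 list gave 0 of 4. With the higher-fold part of each list, reproducible regions and TL gave 0, since LUX fell below the TL median by fold. Tag enrichment in place of fold gave 6.67 in experiment 1, 12.8 in KC and 13.1 in TL. Taking the TL control as 1, chosen after seeing the data, gave 32.0. Rank by IP signal, also a later choice, was 163 in experiment 1 and 17 in TL. Rank by IP tags was 15 in KC and 11 in TL, and by q value 19 and 15. Enrichment and rank are values of single lists, so no replicate can be left out of them. No paired analysis was possible because a region list has no fit over replicates. Experiment 1 held regions of only 6 IP tags, and its control signal was above 1 in 53.9% of regions. The control held at most 1 tag in 86.1% of KC and 88.2% of TL regions.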
